A study of Homo sapiens with 9 samples.

Results

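The 10 genes MCM2, MCM3, MCM4, MCM5, MCM6, MCM7, MCM10, CDC6, CDT1 and CDC45 encode the ring of the replicative helicase and proteins that load it onto DNA or switch it on. They were taken by their symbols from the 33861 genes of the deposited table, and each symbol matched 1 gene. The genes were picked because they were lower after treatment in these libraries, so their own changes are given as descriptions. No p-values are printed for them, and nothing is read from how many of them passed a threshold.

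Replication origins are licensed in G1 phase, when the origin recognition complex and CDC6 together with CDT1 load the ring-shaped MCM2 to MCM7 complex onto DNA. At the start of S phase, kinases and firing factors bring CDC45 and the GINS complex to the loaded ring, which then becomes the active helicase, and MCM10 takes part in this activation. Many genes of this machinery are transcribed through E2F factors, and their mRNA levels are known to be higher in cycling than in resting cells.

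HCT116, a human colorectal carcinoma cell line, was sequenced as total RNA after removal of ribosomal RNA, in 9 libraries. Control cells (NC, 3 libraries) were compared with cells given activin A at 100 ng/mL for 5 days (activin, 3 libraries). The third group (activin + HGF, 3 libraries) received the same activin treatment and then hepatocyte growth factor at 20 ng/mL for another 5 days. The activin + HGF cells had another 5 days, so HGF cannot be told apart from the additional days in culture. Whether activin stayed in the medium during those days is not stated. The culture time of the control cells is not stated either, so activin cannot be told apart from a difference in time in culture. Nothing says whether the libraries of a group came from separate cultures. Below, the activin step means activin against NC, and the HGF step means activin + HGF against activin.

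Libraries held 57453977 to 77016167 counts, and the 10 genes held 102 to 31064 counts in a library. Levels of a gene across libraries are given in CPM, counts scaled to a common library total, with TMM factors, which assume that most genes do not change. Of 7 epithelial markers 5 were above 10 CPM in every library, and VIL1 had at most 16 counts. The fibroblast markers summed to 22.8 to 24.9 CPM in NC, 47.6 to 54.6 in activin and 33.6 to 41.6 in activin + HGF, nearly all of it from COL1A1. The leukocyte markers summed to 1.64 to 3.41, 9.19 to 21.2 and 16.8 to 23.8 CPM in the same order, mostly from CD68. CD14 had 0 to 55 counts in a library, and PTPRC, CD3E and MS4A1 had at most 11. The part of these markers in the results was not tested. Activin replicate 2 stood apart from the other activin libraries, with a TMM factor of 0.988 against 1.16 and 1.17. Values without it are given beside the ring genes MCM2 to MCM7, MCM10 and CDT1. Activin + HGF replicate 1 also stood apart in its group, with a TMM factor of 0.783 against 0.926 and 0.899 in replicates 2 and 3. Its highest gene was MT-RNR2 at 4.49% of counts, where replicates 2 and 3 had MT-CO1 at 3.05% and 2.95%.

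The promoters of 4 of the genes are printed as examples from both kinds of response described below. MCM3 and MCM6 were far lower after activin, while CDC6 and CDT1 overlapped control. Each is the run of 250 bases before the start site of the RefSeq annotation (GRCh38.p14), read 5′ to 3′ on the strand of the gene. Capitals mark matches, on either strand, to the E2F site, spelled TTTCCCGC, TTTCGCGC, TTTGCCGC or TTTGGCGC.
MCM3, chr6:52284743-52284992, minus strand: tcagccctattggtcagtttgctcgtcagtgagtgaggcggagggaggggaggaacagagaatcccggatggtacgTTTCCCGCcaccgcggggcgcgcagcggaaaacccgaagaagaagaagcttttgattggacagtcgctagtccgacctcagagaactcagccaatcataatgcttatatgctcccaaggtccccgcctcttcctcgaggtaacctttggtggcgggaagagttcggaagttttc
MCM6, chr2:135876444-135876693, minus strand: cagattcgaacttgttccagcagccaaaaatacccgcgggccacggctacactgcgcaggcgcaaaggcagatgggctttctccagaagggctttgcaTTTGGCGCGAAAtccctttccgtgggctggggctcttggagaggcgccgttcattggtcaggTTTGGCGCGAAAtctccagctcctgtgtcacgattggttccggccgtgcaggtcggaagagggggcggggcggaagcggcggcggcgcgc
CDT1, chr16:88803539-88803788, plus strand: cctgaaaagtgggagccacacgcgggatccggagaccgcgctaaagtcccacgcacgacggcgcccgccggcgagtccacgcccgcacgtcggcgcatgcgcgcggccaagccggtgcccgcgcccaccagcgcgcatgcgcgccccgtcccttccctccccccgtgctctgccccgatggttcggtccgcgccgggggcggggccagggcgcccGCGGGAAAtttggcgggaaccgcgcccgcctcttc
CDC6, chr17:40287629-40287878, plus strand: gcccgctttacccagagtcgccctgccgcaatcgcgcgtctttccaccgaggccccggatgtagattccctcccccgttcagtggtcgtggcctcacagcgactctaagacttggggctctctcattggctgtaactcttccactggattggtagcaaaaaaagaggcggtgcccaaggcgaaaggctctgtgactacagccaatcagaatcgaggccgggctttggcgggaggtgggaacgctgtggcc
The MCM3 stretch overlaps the 5′ end of the gene as the deposited table places it. It has 1 full match, and a further MCM3 match starts at -4 from the start site and runs past the end of the stretch, so it is not marked. The CDT1 stretch has 1 match, which lies on the opposite strand. In MCM6 the run TTTGGCGCGAAA occurs at both marked places, and each run holds overlapping matches on the 2 strands, 4 in all. CDC6 has 0 matches in the stretch shown, and its match lies in the 50 bases after the start site. The same stretch of MCM2 and of MCM10, both lower after activin, also has 0 matches and is not printed. The matches of MCM2 lie after the start site.

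Promoter windows of 300 bases, from 250 before to 50 after a start site, were found for 8 of the 10 genes, 12 windows in all. An E2F site was in 6 of the 12 windows, from 6 of the 8 genes (MCM2, MCM3, MCM6, MCM7, CDT1 and CDC6). Of all 35116 windows of the genome 3.31% held one, and of the 70 windows of other replication genes 30% did. The CCAAT box, searched as CCAAT on both strands, was in 9 of the 12 windows and in 34.6% of all windows. Some windows of MCM7 and of CDC45 overlap, and by gene the box was in 6 of the 8 genes and in 39.7% of all genes. The CHR element TTTGAA was in 0 of the 12 windows and in 15.2% of all windows. A match is only a run of letters, and none was tested for binding here. CDC6 and CDT1 carried a match, while MCM10 and CDC45, which were lower after activin, had 0 matches in their windows. No window was found for MCM4 and MCM5, and whether the motif goes with the response was not tested.

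All 6 ring subunits were far lower after activin, and their log2 changes at the HGF step lay between -0.44 and 0.24 with TMM scaling, where MCM5 and MCM6 turned from above to below 0 with library totals. MCM10 and CDC45, which act when the ring is switched on, were lower after activin and lower again after HGF. CDC6 and CDT1, the loading factors, had activin values that overlapped control, CDT1 only through activin replicate 2. Since this is RNA of whole cultures, fewer cells in S phase and less RNA per cell cannot be told apart.

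MCM2 (chromosome 3, 127598410 to 127622436, plus strand) contributes the subunit that also binds histones. Its CPM was 205, 196 and 170 in NC, 28.6, 50.3 and 25.1 in activin, and 24.0, 32.8 and 41.0 in activin + HGF. All 6 treated libraries lay below the NC libraries, and the treated groups overlapped. The log2 fold change was -2.46 ± 0.29 (SE of edgeR, as in the following genes) at the activin step and -0.09 ± 0.28 at the HGF step. Without activin replicate 2, which had the highest treated value, these were -2.83 and 0.28.

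MCM3 (chromosome 6, 52264014 to 52284881, minus strand) had 308, 327 and 319 CPM in NC, 71.3, 88.4 and 76.2 in activin, and 66.6, 78.2 and 82.9 in activin + HGF. The treated libraries all lay far below NC, and the treated groups overlapped. Its log2 fold changes were -2.02 ± 0.16 and -0.05 ± 0.16 at the activin step and the HGF step, and -2.11 and 0.04 without activin replicate 2.

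MCM4 (chromosome 8, 47960185 to 47978160, plus strand), part of the ATPase core of the ring together with MCM6 and MCM7, had 241, 243 and 238 CPM in NC. It had 33.9, 44.6 and 37.6 CPM in activin and 26.5, 30.3 and 28.8 in activin + HGF. Among the ring genes MCM4 alone had no overlap in CPM between activin and activin + HGF, while in FPKM, which follow library totals, MCM3 and MCM7 did not overlap either. The log2 fold changes were -2.64 ± 0.16 at the activin step and -0.44 ± 0.16 at the HGF step, and activin + HGF stood at 11.8% of the NC mean. Without activin replicate 2 the steps were -2.75 and -0.33.

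MCM5 (chromosome 22, 35400134 to 35424501, plus strand), which with MCM2 forms the gate through which DNA enters the ring, had the lowest activin level relative to control. Its CPM was 202, 232 and 193 in NC, 23.1, 33.6 and 21.9 in activin, and 26.1, 30.3 and 36.6 in activin + HGF. The activin mean was 12.5% of the NC mean, a log2 fold change of -3.00 ± 0.22. With HGF it was 0.24 ± 0.21 with TMM and -0.07 with library totals, and the groups overlapped. Without activin replicate 2 the values were -3.22 at the activin step and 0.46 at the HGF step.

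MCM6 (chromosome 2, 135839626 to 135876443, minus strand) had 194, 174 and 180 CPM in NC, 48.9, 35.4 and 53.9 in activin, and 49.6, 53.1 and 60.0 in activin + HGF. Here activin replicate 2 was the lowest of all libraries, whereas for MCM2, MCM3, MCM4, MCM5 and MCM7 it was the highest activin library. Its log2 fold changes were -1.99 ± 0.19 and 0.23 ± 0.18 at the 2 steps, the latter turning to -0.12 with library totals. Without that library they were -1.83 and 0.08.

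MCM7 (chromosome 7, 100092728 to 100101940, minus strand), whose gene also holds the microRNA genes MIR25, MIR93 and MIR106B, had 393, 410 and 386 CPM in NC. It had 111, 154 and 113 CPM in activin and 113, 116 and 136 in activin + HGF. Its log2 fold changes of -1.65 ± 0.18 and -0.05 ± 0.17 made it the ring gene with the smallest change at the activin step, and without activin replicate 2 they were -1.82 and 0.12. AP4M1 overlaps it on the other strand with a mean count equal to 4.89% of that of MCM7, and the strand setting of the counting is not stated.

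**Figure D1:**
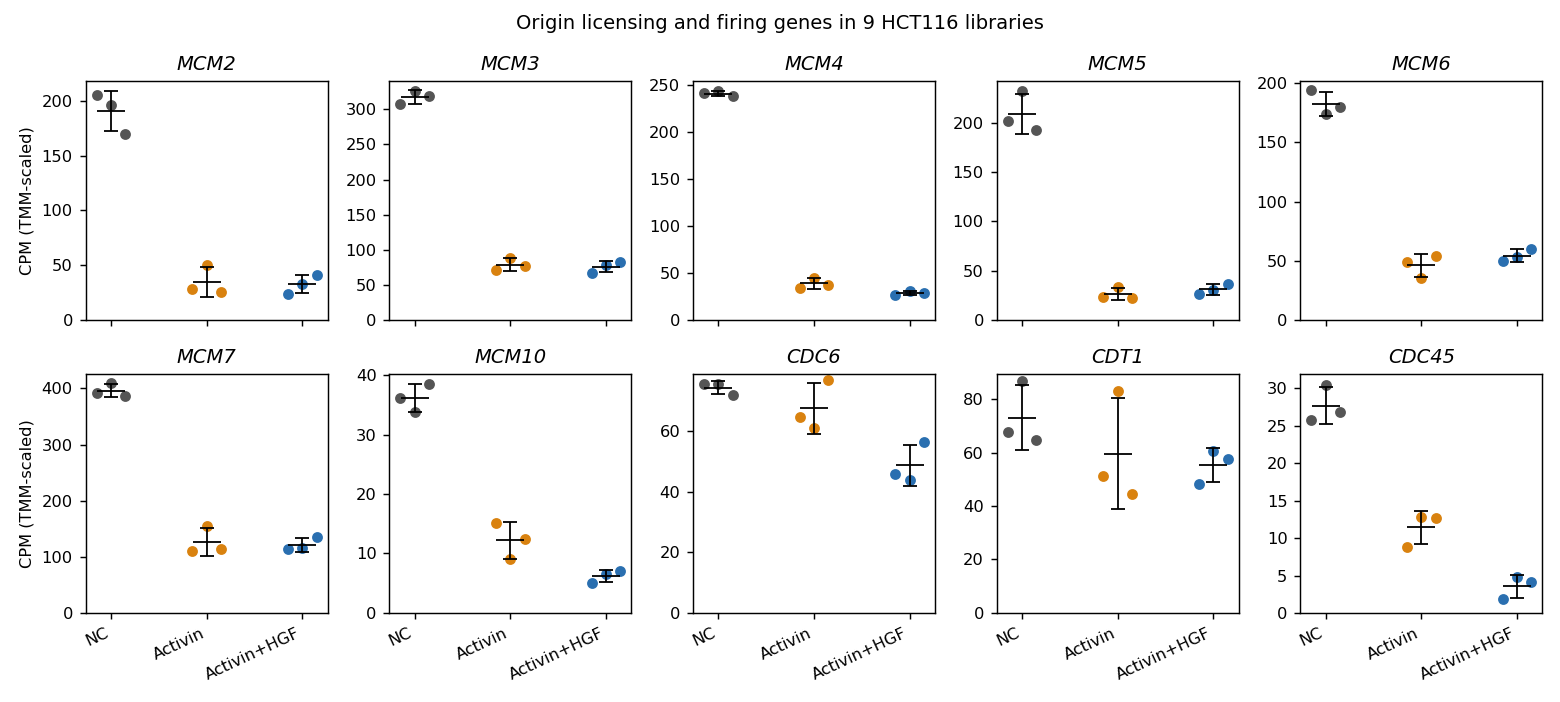
TMM-scaled CPM (linear axes from 0) of the 10 genes in NC, activin and activin + HGF. Points are libraries, horizontal lines are means and bars are SD (n = 3). The 6 ring genes are far below NC in both treated groups, MCM10 and CDC45 are lowest in activin + HGF, and CDC6 and CDT1 overlap between NC and activin.

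MCM10 (chromosome 10, 13161554 to 13211104, plus strand) had 36.2, 33.7 and 38.4 CPM in NC, 15.1, 9.01 and 12.5 in activin, and 5.05, 6.62 and 7.0 in activin + HGF. The 3 groups did not overlap. The mean was 33.8% of NC in activin and 17.2% in activin + HGF. The log2 fold changes were -1.56 ± 0.23 at the activin step and -0.97 ± 0.23 at the HGF step, and -1.39 and -1.15 without activin replicate 2, the lowest activin library.

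CDC45 (chromosome 22, 19479457 to 19520612, plus strand) had the largest decrease at the HGF step. Its CPM was 25.7, 30.5 and 26.9 in NC, 8.83, 12.8 and 12.7 in activin, and 1.87, 4.80 and 4.07 in activin + HGF, where the first value rests on 102 counts. The groups were again separate, at 41.3% and then 12.9% of the NC mean. On the log2 scale the changes were -1.28 ± 0.31 and -1.67 ± 0.32. Leaving out single libraries, the HGF step of CDC45 ran from -1.94 to -1.36.

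CDC6 (chromosome 17, 40287879 to 40304657, plus strand) had 75.6, 75.5 and 71.9 CPM in NC, 64.6, 61.0 and 77.0 in activin, and 45.8, 43.8 and 56.3 in activin + HGF. The highest activin library exceeded all NC libraries, whereas every activin + HGF library lay below every other library. Its change on the log2 scale was -0.14 ± 0.17 at the activin step and -0.47 ± 0.17 at the HGF step.

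CDT1 (chromosome 16, 88803789 to 88809258, plus strand) varied widely within activin. Its CPM was 67.6, 86.9 and 64.7 in NC, 51.1, 83.2 and 44.4 in activin, and 48.4, 60.7 and 57.5 in activin + HGF. Activin overlapped NC only through replicate 2, and overlapped activin + HGF with and without that library. The log2 fold changes were -0.30 ± 0.24 and -0.10 ± 0.24, and without activin replicate 2 they were -0.62 and 0.22.

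A gene was called where edgeR's quasi-likelihood test gave a Benjamini-Hochberg adjusted p under 0.05 and the absolute log2 fold change was at least 1. At the activin step 8 of the 10 genes were called lower, beside 4.62% of all 20988 genes tested, and the same 8 did not overlap between groups, beside 21.3%. At the HGF step 1 gene, CDC45, was called lower, beside 4.21%, and MCM4, MCM10, CDC45 and CDC6 did not overlap, beside 15.6%. Between activin + HGF and NC 8 were called lower, beside 10.2%, and all 10 did not overlap, beside 28.1%. Because the genes were chosen on these changes, nothing is read from these counts. The median log2 fold change of the 10 genes was -1.82 at the activin step, -0.09 at the HGF step and -2.30 between activin + HGF and NC. The medians of all genes tested were 0.02, -0.04 and -0.03.

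The difference between the steps, the log2 fold change at the HGF step minus that at the activin step, puts both on 1 scale. It is a description, and activin libraries enter both steps. It was 3.24 ± 0.39 for MCM5, 2.37 ± 0.51 for MCM2, 2.22 ± 0.33 for MCM6, 2.20 ± 0.28 for MCM4, 1.96 ± 0.28 for MCM3 and 1.60 ± 0.31 for MCM7. For MCM10 it was 0.59 ± 0.39. For CDT1 it was 0.19 ± 0.42, for CDC6 -0.34 ± 0.29 and for CDC45 -0.39 ± 0.53. Leaving out single libraries, CDT1 ran from -0.26 without activin replicate 3 to 0.83 without activin replicate 2, and was also below 0 without NC replicate 2 (-0.07) or activin replicate 1 (-0.09). MCM10 ran from 0.24 without activin replicate 2 to 0.84 without activin replicate 1. CDC45 ran from -0.81 without activin replicate 1 to -0.08 without activin + HGF replicate 1, with -0.22 without activin replicate 2, -0.60 without NC replicate 2 and -0.66 without activin + HGF replicate 2. The ring genes stayed above 0 in each such fit, from 1.33 for MCM7 to 3.68 for MCM5. CDC6 stayed between -0.51 and -0.25. The ring genes thus had most of their decrease at the activin step, while MCM10 and CDC45 had decreases at both.

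**Figure D2:**
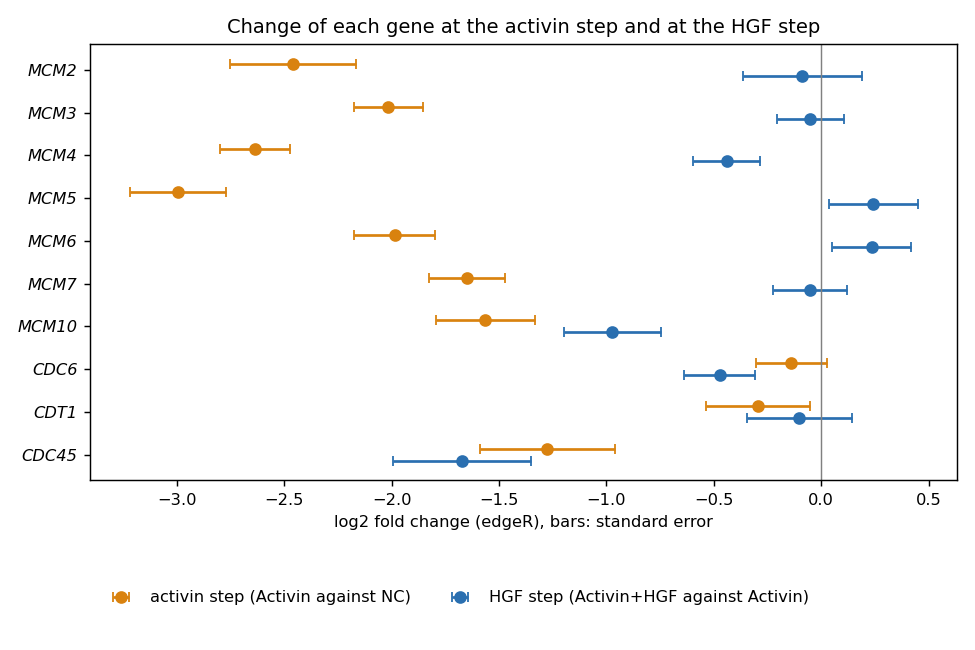
The log2 fold change of each gene (horizontal axis, edgeR) at the activin step and at the HGF step, with bars showing the SE. Activin values of MCM2 to MCM7 lie between -3.00 and -1.65 and their HGF values between -0.44 and 0.24 (MCM5 and MCM6 below 0 with library totals), while CDC45 lies at -1.28 and -1.67.

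The HGF step depended on how libraries were scaled. With library totals in place of TMM, the median of all genes shifted to -0.38 at the HGF step, and MCM5 and MCM6 changed sign to -0.07 and -0.12. MCM2, MCM3 and MCM7 were each at -0.38 on that scale, MCM10 at -1.33 and CDC45 at -1.98. Relative to the median of all genes, the median of the 6 ring genes was -0.01 with TMM and 0.00 with library totals, and CDC45 was at -1.63 and -1.59. Apart from MCM3 and MCM7, which stood level, the genes kept their order at the HGF step, while the value they are read against moved. Over all genes, 884 were called lower and 813 higher at the HGF step with TMM, and 1805 and 319 with library totals.

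Levels of different genes were compared in FPKM, which is per length. In NC the order was MCM7 (81.1 ± 1.92, SD, n = 3), MCM3 (78.2 ± 0.555), MCM6 (39.7 ± 3.15), MCM2 (36.3 ± 3.85), MCM4 (31.0 ± 0.693), MCM5 (25.8 ± 2.13) and CDT1 (23.7 ± 3.47). CDC6 (12.6 ± 0.486), CDC45 (8.31 ± 0.556) and MCM10 (5.95 ± 0.460) followed. Of neighbours in this order, only MCM6 with MCM2 and MCM5 with CDT1 overlapped between libraries. In activin + HGF, CDT1 (14.8 ± 2.95) stood beside MCM3 (15.3 ± 2.91) and overlapped it. CDC6 (6.70 ± 1.22) was above MCM2 (5.11 ± 1.65), MCM5 (3.14 ± 0.737) and MCM4 (2.99 ± 0.463), and overlapped MCM2 alone of these. CDC45 (0.897 ± 0.436) and MCM10 (0.837 ± 0.206) remained lowest.

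Within a library, a ratio of FPKM does not depend on the scaling of libraries. The summed FPKM of MCM2 to MCM7 was 23.3 ± 0.267 times that of CDC6 in NC, 6.23 ± 1.42 times in activin and 8.44 ± 0.690 times in activin + HGF. Over CDT1 the ratios were 12.5 ± 1.62, 3.79 ± 0.794 and 3.84 ± 0.341. For both loading factors the treated libraries lay below every NC library. Over CDC45 the ratio went the other way at the HGF step, from 35.2 ± 2.61 in NC and 20.8 ± 3.36 in activin to 73.5 ± 32.2 in activin + HGF. The 3 activin + HGF libraries had 109.5, 47.5 and 63.4, all above the other 6 libraries. Over MCM10 it was 49.3 ± 4.54, 37.4 ± 15.1 and 68.4 ± 5.92, and activin replicate 2, at 54.4, was above all NC libraries. CDT1 over GMNN, which encodes geminin, the inhibitor of CDT1, was 2.0 ± 0.374, 3.24 ± 1.66 and 2.85 ± 0.551, with overlapping groups.

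**Figure D3:**
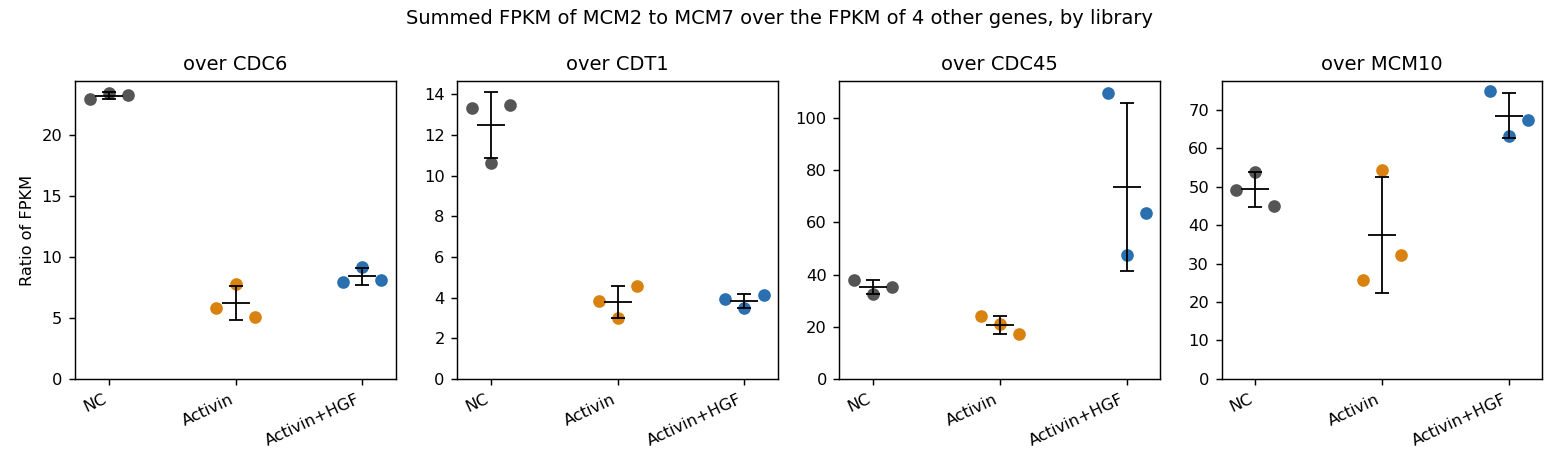
Summed FPKM of MCM2 to MCM7 divided by the FPKM of CDC6, CDT1, CDC45 and MCM10 (linear axes from 0). Points are libraries, lines are means and bars are SD (n = 3). The ratios over CDC6 and CDT1 are lower in both treated groups, and the ratio over CDC45 is highest in activin + HGF.

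The 6 subunits enter the ring in equal numbers, but their mRNA shares were unequal and shifted after activin. MCM7 made up 27.8% ± 0.316 (SD, n = 3) of the summed FPKM in NC, 36.7% ± 2.21 in activin and 36.1% ± 1.5 in activin + HGF. MCM5 went from 8.83% ± 0.649 to 4.58% ± 0.533 and 5.51% ± 0.300, and MCM4 from 10.6% ± 0.176 to 7.10% ± 0.233 and 5.33% ± 0.490. For each of these the treated libraries did not overlap NC. MCM3 kept 26.8% ± 0.953, 27.7% ± 0.709 and 27.1% ± 0.953, with overlapping groups. The share of MCM6 in activin was 16.7% and 17.8% in replicates 1 and 3 and 9.56% in replicate 2. The highest of the 6 genes was 3.15 ± 0.203 times the lowest in NC, 8.06 ± 0.481 times in activin and 7.02 ± 0.627 times in activin + HGF.

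**Figure D4:**
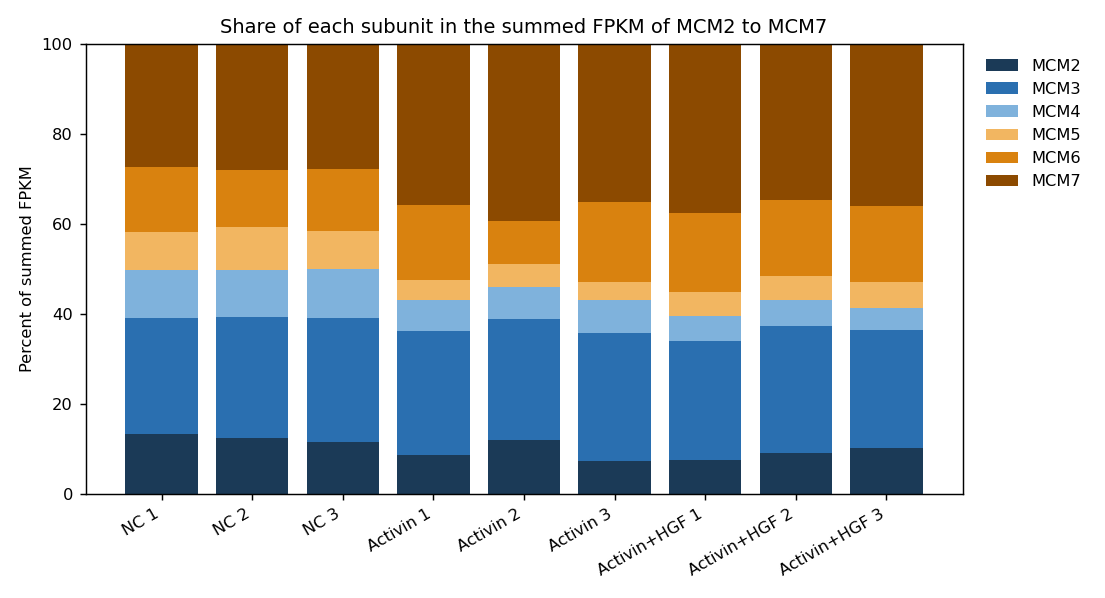
Share of each subunit gene in the summed FPKM of MCM2 to MCM7 (vertical axis, percent) in each of the 9 libraries. The MCM7 share is larger and the MCM5 and MCM4 shares smaller in every treated library than in the NC libraries, and activin replicate 2 has a small MCM6 share.

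The other genes of DNA replication, 61 in number and all tested, were taken from lists of known roles. These lists were chosen with earlier results of these data known. At the activin step 20 of 61 (32.8%) were called lower and 1, POLD4, was called higher, with a median log2 fold change of -0.84. Without NC replicate 1, 13 were called lower. At the HGF step 9 (14.8%) were called lower, with a median of -0.36, and 5 were without activin replicate 1. By edgeR's quasi-likelihood test 0 were called higher at the HGF step and 0 by DESeq2, while 3 had an unadjusted p under 0.05 and a higher level. Among these, POLD1 rose by 0.81 (edgeR adjusted p = 0.0266), short of the fold threshold, and its groups did not overlap. Without activin replicate 2, 2 were called higher, POLE4 and POLD1. Between activin + HGF and NC 38 (62.3%) were called lower and 2 higher, with a median of -1.18. Of all genes tested, 4.62%, 4.21% and 10.2% were called lower in the same order, and 6.78%, 3.87% and 11.3% were called higher.

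The origin recognition complex marks origins before CDC6 and CDT1 act. At the activin step 2 of its 6 genes were called lower, and the adjusted p-values that follow are Benjamini-Hochberg values of edgeR's quasi-likelihood test. ORC1, a subunit known to vary through the cell cycle, fell by 1.89 on the log2 scale (SE 0.19, edgeR adjusted p = 0.000175), from 41.3, 40.7 and 39.9 CPM in NC to 10.2, 12.8 and 9.79 in activin. ORC3 fell by 1.38 (edgeR adjusted p = 0.0116), a call lost without NC replicate 1. ORC5 (-1.18), ORC6 (-0.60), ORC2 (-0.07) and ORC4 (-0.06) were not called, with edgeR adjusted p of 0.0705, 0.11, 0.868 and 0.894. The HGF step left the 6 genes between -0.74 and 0.04 with the smallest adjusted p at 0.0854. Between activin + HGF and NC 4 were called lower, ORC1 (-2.41), ORC5 (-1.92), ORC3 (-1.44) and ORC6 (-1.12), the last call being lost without activin + HGF replicate 1.

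Of the 8 genes that control licensing, 4 had an adjusted p under 0.05 by edgeR's quasi-likelihood test at the activin step, beside 8.41% of all genes lower at that threshold, and all 4 had log2 fold changes short of 1 in size. They were MCMBP (-0.98, edgeR adjusted p = 0.00576), an MCM-binding protein, GMNN (-0.93, adjusted p = 0.00561), SKP2 (-0.92, adjusted p = 0.0112) and DTL (-0.88, adjusted p = 0.0314), the latter pair being parts of ubiquitin ligases that target CDT1. The ligase genes CUL4A (-0.14), CUL4B (-0.57) and DDB1 (-0.55) and the acetyltransferase gene KAT7 (-0.11) had adjusted p of 0.0783 to 0.676. With HGF, DTL fell by 1.20 (SE 0.25, edgeR adjusted p = 0.0146) and GMNN was at 0.03 (adjusted p = 0.923). DTL lost its call without activin replicate 1. Between activin + HGF and NC DTL, MCMBP and SKP2 were called lower, at -2.07, -1.37 and -1.20.

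Of 13 firing genes 2 were called lower at the activin step, 3 at the HGF step and 10 between activin + HGF and NC. GINS2, a subunit of the complex that joins CDC45 on the ring, had 50.7, 52.5 and 49.5 CPM in NC, 7.54, 11.4 and 8.02 in activin, and 7.0, 6.86 and 7.08 in activin + HGF. It fell by 2.50 at the activin step (SE 0.20, adjusted p = 4.67e-05, edgeR's quasi-likelihood test) and was at -0.36 at the HGF step (adjusted p = 0.233). TOPBP1, a scaffold in firing, fell by 1.29 at the activin step (adjusted p = 0.0124), a call lost without NC replicate 1 or NC replicate 2. TICRR, whose product brings CDC45 to the ring, went from 39.4, 38.7 and 39.1 CPM in NC through 28.0, 22.4 and 23.0 in activin to 8.17, 12.6 and 7.61 in activin + HGF. It fell by 1.37 at the HGF step (SE 0.22, adjusted p = 0.0067). Its partner MTBP fell by 1.21 (adjusted p = 0.0163), and GINS4 by 1.02 (adjusted p = 0.0147). MTBP lost its call without activin replicate 1 or activin + HGF replicate 2, and GINS4 lost it without any one of activin replicate 2, activin + HGF replicate 1 and activin + HGF replicate 2. GINS4 was also at -0.85 at the activin step (adjusted p = 0.019), short of the fold threshold.

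Of 31 genes of polymerases and the replisome 15 were called lower and 1 higher at the activin step, 5 lower at the HGF step, and 20 lower and 2 higher between activin + HGF and NC. POLA1 (-1.94, adjusted p = 0.0082, edgeR's quasi-likelihood test), the catalytic subunit of DNA polymerase alpha, and DSCC1 (-1.63, adjusted p = 0.000479), a sister chromatid cohesion factor, had the largest decreases at the activin step. For the HGF step these were POLD3 (-1.86, adjusted p = 0.00779), an accessory subunit of polymerase delta, the primase gene PRIM1 (-1.62, adjusted p = 0.00546) and POLA2 (-1.60, adjusted p = 0.0143). POLD4, the smallest subunit of polymerase delta, went the other way, from 6.26, 4.52 and 4.67 CPM in NC to 24.1, 43.9 and 28.4 in activin, and 25.2, 31.7 and 25.3 in activin + HGF. It rose by 2.64 at the activin step (SE 0.27, adjusted p = 0.00019). POLE4, a small subunit of polymerase epsilon, was called higher between activin + HGF and NC (1.38, adjusted p = 0.00627), while POLA1, POLE2 and PRIM1 had the largest decreases there, at -2.91, -2.78 and -2.67.

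**Figure D5:**
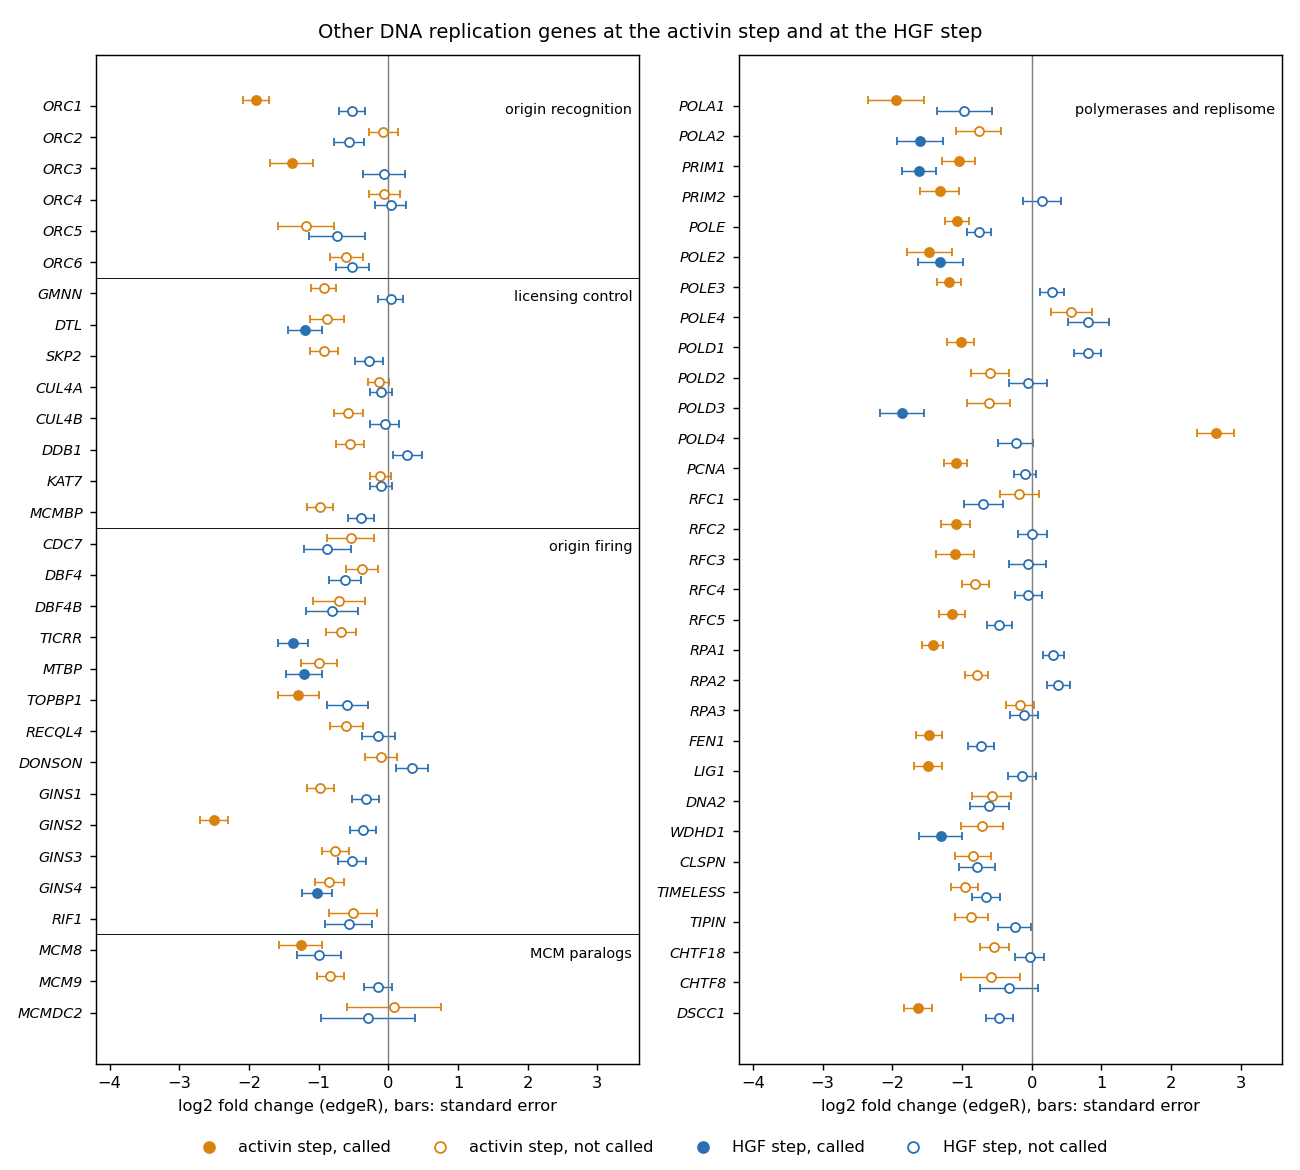
The log2 fold changes (horizontal axes, edgeR) of the 61 other replication genes at the activin step and at the HGF step, by role. Bars are SE and filled points are calls. Filled activin points lie left of 0 except POLD4, and all 9 filled HGF points lie left of 0.

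The MCM paralogs do not belong to the ring. MCM8, which works in recombination with MCM9, fell by 1.26 at the activin step (adjusted p = 0.0194, edgeR's quasi-likelihood test), a call lost when any one of the 3 NC libraries or activin replicate 2 was left out. MCM9 was at -0.83 (adjusted p = 0.0161) and MCMDC2 at 0.08 (adjusted p = 0.955), the latter with means of 0.383 to 0.471 CPM. The HGF step had MCM8 at -1.0 (adjusted p = 0.0613), MCM9 at -0.15 and MCMDC2 at -0.30.

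The difference between the steps was tested for the 61 other genes. By edgeR's quasi-likelihood test with an adjusted p under 0.05 it was above 0 for 7, beside 4.49% of all genes, and below 0 for 1, beside 4.66%. These genes were named after their values were seen. GINS2 (2.14 ± 0.35, adjusted p = 0.00512), RPA1 (1.73 ± 0.27, adjusted p = 0.00405), a subunit of the single-strand binding complex, and POLD4 (-2.87 ± 0.42, adjusted p = 0.00302) passed in all 9 fits with a library left out and with library totals. POLD1 was at 1.83, POLE3 at 1.48, ORC1 at 1.37, LIG1 at 1.35 and RPA2 at 1.17. At the HGF step itself, with TMM, POLD1 (0.81), RPA2 (0.38), RPA1 (0.31) and POLE3 (0.30) were higher. ORC1 (-0.52), GINS2 (-0.36), POLD4 (-0.23) and LIG1 (-0.14) were lower there, and none of these genes was called at that step. The count of step differences above 0 was 4 with library totals. It was 2 without activin replicate 1 or activin replicate 3, 3 without NC replicate 1 or NC replicate 2, and 4 without NC replicate 3 or activin + HGF replicate 2. The count below 0 was 2 without activin replicate 2 or activin + HGF replicate 2. For TICRR (-0.69, adjusted p = 0.278), POLD3 (-1.24, adjusted p = 0.168) and PRIM1 (-0.57, adjusted p = 0.423), called lower at the HGF step, the steps were not shown to differ. PRIM1 was also called lower at the activin step (-1.05, edgeR adjusted p = 0.013). That call was lost without NC replicate 1, NC replicate 3 or activin replicate 3, and with library totals.

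Genes of proliferation and mitosis were measured beside these. MKI67, the Ki-67 marker of cycling cells, had 616, 542 and 548 CPM in NC, 235, 128 and 238 in activin, and 72.9, 78.5 and 28.6 in activin + HGF. It fell by 1.5 at the activin step (SE 0.36, adjusted p = 0.0157, edgeR's quasi-likelihood test) and by 1.74 at the HGF step (SE 0.36, adjusted p = 0.0148). The activin call was lost without NC replicate 1 or NC replicate 2, and the HGF call without activin replicate 1. PLK1, a mitotic kinase, fell by 1.02 at the HGF step (adjusted p = 0.0311), a call lost when activin replicate 1, activin replicate 2, activin + HGF replicate 1 or activin + HGF replicate 3 was left out. Of the 8 genes 1 was called lower at the activin step, 2 at the HGF step and 6 between activin + HGF and NC. The shares of all genes were 4.62%, 4.21% and 10.2%, and the medians of the 8 genes were -0.58, -0.84 and -1.41. In the last comparison BUB1 (-1.63), TOP2A (-1.68), CCNB1 (-1.34) and AURKB (-1.20) were also called lower. Short of the fold threshold, edgeR adjusted p was also under 0.05 for CCNB1 (-0.70) and BUB1 (-0.81) at the activin step. The same held for AURKB (-0.87) and BUB1 (-0.82) at the HGF step, and for CCNA2 between activin + HGF and NC. CDK1 was at 0.33, -0.20 and 0.13 and CCNA2 at -0.24, -0.26 and -0.50 in the 3 comparisons, and neither was called.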

How the data were processed

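The authors deposited read counts per gene, which were not normalized, and FPKM values of the same 33861 genes, normalized by the authors to library size and gene length. The submitters' processing notes name cutadapt 1.9, HISAT2 2.0.4 and StringTie 1.3.4d. The genome build is not given in the sources used here. Gene coordinates are those of the table, and 99.5% of 32930 shared genes had a start or end within 1000 bases of GENCODE 29 (GRCh38). Promoter sequences are from RefSeq (GRCh38.p14).

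Counts of all 9 libraries were analysed with the quasi-likelihood test of edgeR 4.0.16 (genes kept by filterByExpr, TMM factors, a mean per group, no block) in R 4.3.3, and p-values were adjusted over all 20988 genes tested. Library totals were 57453977 to 77016167 counts, and 3 libraries per group limit the precision. Nothing says that libraries of a group are separate cultures, so p-values measure the spread between these libraries. Among counts of 1 to 40, 35.0% were multiples of 4, beside 25% if even, and the reason was not tested.

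The genes and lists were chosen with earlier results of these data known. Named genes were the 10 genes, all genes of lists of up to 8, in longer lists up to 3 called genes with the largest changes per comparison and any called in the opposite direction, the mitosis genes, the nearest protein-coding neighbours and the 10 genes most similar in profile. Alternatives used DESeq2 1.42.0 and limma 3.58.1, other scalings, filters and thresholds, a replicate block, and left-out libraries. The alternatives for the counts of step differences were chosen after seeing the data. Figures used Python 3.11.15 and matplotlib 3.10.9.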

Additional observations from a re-analysis of the deposited data

How the results depend on the processing

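With 3 libraries a group, the precision rests on the number of libraries and not on counts. The HGF step depended on the scaling of libraries, and FPKM, which follow library totals, moved it in the same direction. The median of the 10 genes at the HGF step was -0.40 with library totals, -0.43 with limma on log2(FPKM + 0.1) and -0.41 with limma on log2(FPKM + 1). Between activin + HGF and NC it was -2.56, -2.54 and -2.13, and the median difference between the steps was 1.39, 1.34 and 1.32. MCM6 at the HGF step reversed to -0.12 in each of these 3 settings. With each library left out in turn, the median was -1.84 to -1.75 at the activin step, -0.35 (without activin replicate 3) to 0.060 (without activin replicate 2) at the HGF step and -2.39 to -2.17 between activin + HGF and NC, and the median difference between the steps was 1.53 to 1.92.

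Of the 61 other replication genes, those called lower at the activin step were 34 with no fold threshold and 12 with limma on log2(FPKM + 1), and those at the HGF step were 4 with only the groups compared. Called higher were 1, POLD1, at the HGF step with no fold threshold, and 1 between activin + HGF and NC with limma on log2(FPKM + 1). Left-out libraries gave 13 to 20 lower at the activin step, 5 to 11 lower and 0 to 2 higher at the HGF step, and 35 to 39 lower between activin + HGF and NC. The step difference was above 0 for 4 with library totals, 12 with DESeq2 and 2 to 10 with a library left out, and below 0 for 1 to 2. The cause was not tested.

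Same-numbered libraries did not visibly deviate together (correlations of -0.05 to 0.07 over 9 pairs), and pairs with different numbers ran from -0.07 to 0.09. These correlations cannot show whether same-numbered libraries shared a batch. With a replicate block the medians were -1.83, -0.05 and -2.30, the difference between the steps was 1.79, and 21, 9 and 38 other genes were called lower.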

Other observations

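The genes whose profile over the 9 libraries was most like the mean standardised log2 CPM of the 10 genes were, by Pearson correlation, TYMS (0.998), TMEM248 (0.995), NOP56 (0.994), CTPS1 (0.994), METTL7B (0.994), SCARA3 (0.989), FEN1 (0.989), NUP188 (0.988), GINS2 (0.987) and SSRP1 (0.987). TYMS and CTPS1 encode thymidylate synthase and CTP synthase, FEN1 a nuclease of lagging-strand synthesis, NOP56 a nucleolar protein of ribosome biogenesis, and SSRP1 a subunit of the FACT histone chaperone. The libraries share groups, so the correlation follows the group means. Of 14747 genes compared, 168 (1.14%) had a correlation of at least 0.95, and 12 of these were other replication genes. The 10 genes themselves ranged from 0.990 for MCM4 to 0.733 for CDC6 and 0.653 for CDT1. At the activin step TYMS fell by 1.73 and NOP56 by 1.41 on the log2 scale. Both were picked for following genes that fell in these libraries, so these values are descriptions.

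The nearest protein-coding genes on each side were 20, of which 16 were tested. PRKDC, next to MCM4 and coding for the catalytic subunit of DNA-dependent protein kinase, fell by 1.19 at the activin step (SE 0.24, adjusted p = 0.00729, edgeR's quasi-likelihood test), a call lost without activin replicate 2. HMOX1 next to MCM5, the inducible haem oxygenase, rose by 2.54 (adjusted p = 0.000218) and OPTN next to MCM10 by 1.01 (adjusted p = 0.00333). At the HGF step PODXL2, next to MCM2, rose by 1.32 (adjusted p = 0.014), a call lost without activin replicate 1 or activin replicate 3 and with library totals. Between activin + HGF and NC, PRKDC was called lower at -1.85, and PODXL2 (2.14), HMOX1 (2.83), RARA (1.12) and APRT (1.03) were called higher. The calls of RARA and APRT were lost with library totals, and that of APRT without NC replicate 1. The median of the tested neighbours was 0.49 at the activin step, -0.03 at the HGF step and 0.03 between activin + HGF and NC. COPS6, beside MCM7, was at -0.96 (adjusted p = 0.00487) at the activin step, just short of the fold threshold.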
